A study of Drosophila melanogaster with 12 samples.

Results

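Glutamine synthetases, glutamate dehydrogenase, aspartate transaminases and the enzymes that make and oxidise proline were followed across the diets and genotypes of a study of fruit fly larvae lacking Mlx. The 8 genes were Gs1, Gs2, Gdh, Got1, Got2, CG7470, P5cr and slgA. They were chosen by gene name and make up 8 of the 16413 gene names in the deposited table, with 70 of its 82004 named exon entries. An exon entry is a numbered row of read counts for a stretch of a gene, and the entries of each gene were summed.

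Glutamate stands where the citric acid cycle and amino acid metabolism meet. Glutamine synthetase joins ammonia to glutamate, and glutamate dehydrogenase releases ammonia from it and returns its carbon to the cycle as 2-oxoglutarate. Aspartate transaminases pass the amino group between glutamate and aspartate, in the cytosol and in mitochondria, and form part of the malate-aspartate shuttle. Proline is made from glutamate through pyrroline-5-carboxylate, called P5C, and is oxidised back to it by proline dehydrogenase. Proline is known as a fuel of insect muscle.

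RNA was sequenced from whole Drosophila melanogaster larvae labelled as the third instar. Control larvae, labelled wild type, and mlx1 mutants gave 3 libraries each on both diets, 12 in all, lettered A, B and C within each of the 4 groups. All larvae had fed on plates of 10% yeast; those of the low-sugar groups were collected 1.5 h after a move to fresh 10% yeast, and those of the high-sugar groups 8 h after a move to 10% yeast with 20% sucrose. The column names of the low-sugar libraries read 1 h where their titles read 1.5 h. Non-feeding larvae had been removed. Mlx acts together with Mondo, a transcription factor that responds to sugars, and the comparisons ask which diet differences depend on it. A diet contrast also holds the hours after transfer and a column tag, L2 in the low-sugar and L3 in the high-sugar libraries, whose meaning is not given; these cannot be told apart. With 1 line per genotype, loss of Mlx and other differences between the lines cannot be told apart either.

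The glutamine synthetases were Gs1 (FBgn0001142, 2L:132077-134472, plus strand) and Gs2 (FBgn0001145, X:11316865-11324230, plus strand). Glutamate dehydrogenase was Gdh (FBgn0001098, 3R:19761680-19768823, minus strand). The cytosolic aspartate transaminase was Got1 (FBgn0001124, 2R:12025857-12029433, plus strand) and the mitochondrial enzyme Got2 (FBgn0001125, 2L:1984512-1987758, minus strand). P5C synthase, which converts glutamate into P5C, was CG7470 (current symbol P5CS, FBgn0037146, 3L:21965102-21977706, plus strand). P5C reductase, which makes proline from P5C, was P5cr (FBgn0015781, 3R:14854653-14855881, plus strand). Proline dehydrogenase was slgA (sluggish A, FBgn0003423, X:21245029-21256188, plus strand). Positions are those of the table, whose genome build is not given in the sources used here.

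Library totals ranged from 8924342 to 12507970 counts. As a check of the labels, the gene of Mlx, named bigmax in the table, had 27.0 ± 0.73 CPM in low-sugar wild type against 0.694 ± 0.201 CPM in low-sugar mutants (SD, n = 3), and 32.6 ± 1.92 against 0.893 ± 0.168 in the high-sugar groups. CPM is the count scaled to library size with TMM factors. Libraries of the same group differed in cuticle genes, which larvae express around the moult. The mean log2 CPM of 95 such genes was 4.08 and 3.59 in the low-sugar libraries A of wild type and mutants and 3.02 in the high-sugar wild-type library C, against 3.98 to 6.5 in the other 9 libraries. These 3 were left out in an alternative because each stood well below the others of its own group; the high-sugar mutant library A, at 3.98, lay close to its group and was kept. The 7 fat body markers summed to at most 28.6 CPM in any library, and of them Fbp1 had 0 counts, while the sums of the muscle and midgut lists were at least 4086 CPM in every library. Sums of different marker genes do not compare the amounts of the tissues. Each gene was tested in an edgeR quasi-likelihood model of all 12 libraries and called where its p, adjusted by Benjamini-Hochberg over 10045 genes, was under 0.05. All adjusted p-values below are of this kind and two-sided, and the errors given with log2 fold changes are their standard errors. They measure library-to-library spread, which may be technical, since no label says that the 3 libraries came from separate cultures. The 95% intervals below are these errors times a normal quantile, so they are somewhat narrower than the test itself would give.

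Mutants on high sugar carried less RNA of 4 of the 8 enzymes than wild type, namely Gs1, Gs2, Got2 and CG7470, and more of Gdh. Gs1 was read from 220 bases alone, which need not stand for its mRNA, as set out below. These 5 calls of 8 compare with 13.9% of all genes called in that contrast, 709 of them lower and 683 higher. The 8 genes were chosen with earlier results of these data known, so such shares describe the set and are no test of it. The median log2 fold change of the 8 genes was -0.57, against 0.00 over all genes. On low sugar the mutants differed in Gdh, which was higher, and Gs2, which was lower, 2 of 8 against 3.59% of all genes, with medians of -0.22 and 0.01. Same-letter libraries of the genotypes deviated together on low sugar, and with the letter as a block within each diet 4 of 8 were called there, with Got2 and CG7470 lower as well, against 8.59% of all genes. In whole larvae fewer cells of a type and less RNA per cell cannot be told apart.

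The diet contrast in wild type held 3 calls, all higher on high sugar, in Gs1, Gs2 and CG7470. The background was 23.1% of all genes called, so 3 of 8 is not far above it; the medians were 0.22 for the 8 genes and -0.05 for all. The summed level of the fat body markers moved with diet too, from 12.6 to 19.9 CPM on low sugar to 25.3 to 28.6 CPM on high sugar in wild type, and from 9.49 to 17.0 CPM to 18.4 to 21.4 CPM in mutants. This rise was that of GRHR, the adipokinetic hormone receptor, with group means of 5.27 and 19.3 CPM in wild type and 4.83 and 14.8 CPM in mutants. Lsp1gamma went the other way, with group means of 9.46 and 6.97 CPM in wild type and 7.76 and 4.21 CPM in mutants. The rest of the list had group means of at most 1.08 CPM. The midgut sum was 4086 to 5770 CPM on low sugar and 5972 to 7398 CPM on high sugar in wild type, and overlapped between the diets in mutants. The part of these tissues in the diet responses was not tested. In mutants Gs2 and CG7470 rose and Got2 fell, again 3 of 8, against 29.3% of all genes, with medians of 0.19 and -0.01. The difference between the diet responses of the genotypes, called the interaction below, was called for Got2 alone, 1 of 8 against 6.89% of all genes, with medians of -0.23 and 0.01. Got1, P5cr and slgA were called in none of the 5 contrasts by this fit.

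**Figure D1:**
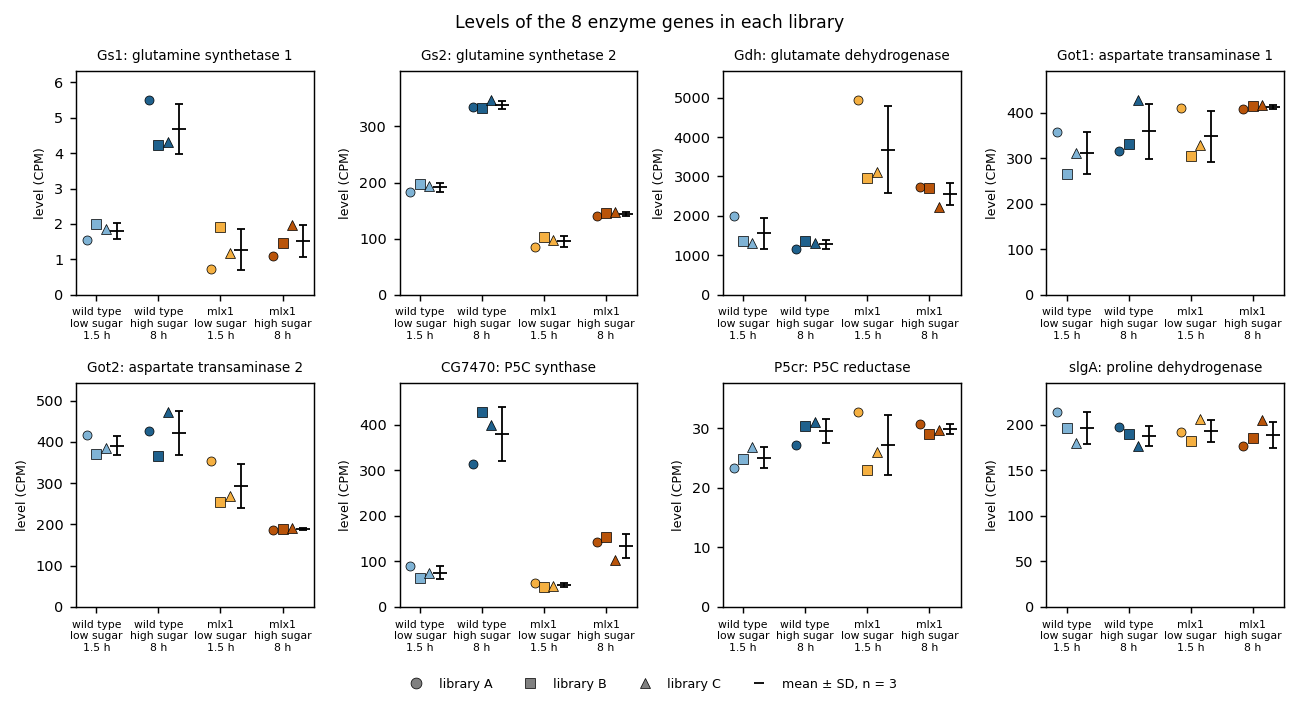
Level of each of the 8 genes in CPM (linear axes from 0) in the 12 libraries, with the library letter as the symbol and the mean ± SD of the 3 libraries of each group in black. Gs2 and CG7470 were lowest in low-sugar mutants and highest in high-sugar wild type, Gdh stood above wild type in every mutant library, and slgA stayed between 176 and 214 CPM in all 12 libraries.

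**Figure D2:**
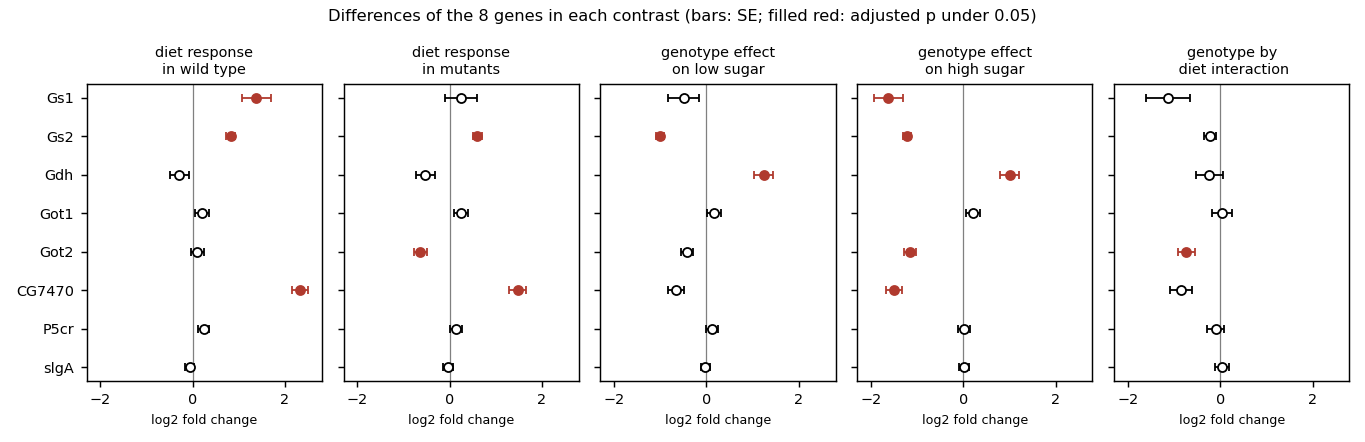
Log2 fold change of the 8 genes with its standard error in the 5 contrasts, with filled red symbols where the adjusted p was under 0.05. The diet contrasts are high minus low sugar, the genotype contrasts mutant minus wild type, and the interaction the difference of the 2 diet responses, mutant minus wild type.

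Gs2, the cytosolic glutamine synthetase, was called in both diet and both genotype contrasts. It stood at 182, 197 and 194 CPM in libraries A, B and C of low-sugar wild type and at 84.5, 103 and 98.3 CPM in low-sugar mutants. The high-sugar values were 335, 333 and 347 CPM in wild type and 141, 146 and 148 CPM in mutants. No library of any group overlapped another group, and high-sugar mutants were still below low-sugar wild type. The level rose on high sugar 1.77-fold in wild type (log2 0.82 ± 0.09, adjusted p = 0.00014) and 1.52-fold in mutants (0.60 ± 0.09, adjusted p = 0.000514). The mutants were 2.01-fold lower on low sugar (log2 -1.0 ± 0.09, adjusted p = 0.000104) and 2.34-fold lower on high sugar (-1.23 ± 0.09, adjusted p = 5.36e-06). The diet responses of the genotypes differed by -0.22 ± 0.13 (95% interval -0.48 to 0.04, adjusted p = 0.334), which was not called.

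Glial cells are a known site of glutamine synthetase, and the summed level of 5 glial markers moved with Gs2 in wild type, from 172 to 223 CPM on low sugar to 236 to 278 CPM on high sugar. In mutants the sums were 181 to 193 and 209 to 231 CPM. The glutamate transporter Eaat1, which is in this list, rose in wild type by 1.23 ± 0.20 on the log2 scale (adjusted p = 0.00127), and moody by 0.73 ± 0.17 (adjusted p = 0.00883). The glial transcription factor repo was at 10.4 to 11.6 CPM in all 4 group means and differed by -0.08 ± 0.19 (adjusted p = 0.785). loco differed by -0.13 ± 0.17 (adjusted p = 0.626) and nrv2 by 0.28 ± 0.13 (adjusted p = 0.128) in wild type, and neither was called. The part of glia in the Gs2 values was not tested.

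Within Gs2 the most upstream exon entry, entry 1 (X:11316865-11317105), made up a smaller share of the counts in mutants. Entry 1 was counted in libraries A, B and C with 89, 93 and 120 reads in low-sugar wild type, 37, 38 and 38 in low-sugar mutants, 162, 193 and 195 in high-sugar wild type, and 44, 31 and 38 in high-sugar mutants. Mutant counts were below every wild-type count, and the mutant sums were 113 on both diets while the wild-type sums were 302 and 550. These sums are not scaled to library size. In CPM the group mean on high sugar was 1.17-fold that on low sugar in mutants, whose libraries overlapped, and 1.87-fold in wild type. As a share of the counts of the 4 entries tested, entry 1 made up 5.25% in low-sugar wild type and 3.52% in low-sugar mutants, and 5.53% and 2.68% in the high-sugar groups. On high sugar its level was 4.75-fold higher in wild type than in mutants by group means, against 2.85-fold for entry 7 (X:11322562-11322902).

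The exon-level test of edgeR compares each entry with the rest of its gene. For the genotype effect on high sugar it called 0.138% of 32629 entries and 0 of the 40 tested entries of these genes, with 2 of the 40 at an unadjusted p under 0.05. Gs2 entry 1 had a relative log2 fold change of -0.71 (unadjusted p = 0.000141, adjusted p = 0.088), and Got1 entry 2 of -0.47 (unadjusted p = 0.0435, adjusted p = 1). Gs2 entry 1 was called in 5 of 16 alternative settings, with adjusted p from 0.0209 to 0.0495 in those 5 and up to 1 in the others. With entries that overlap another entry left out, its relative log2 fold change was -0.53 (adjusted p = 1). For the diet response in wild type the test called 0.095% of all entries and 0 of 40, none of which had an unadjusted p under 0.05.

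Gs1, the mitochondrial glutamine synthetase, could be read from a small part of the gene. Its 4 entries overlap each other, and 278 counts in the 12 libraries all fell in entry 2. The bases that only entry 2 covers are 220 of its 2396 (2L:132256-132475). They fill the gap between the end of entry 1 and the start of entries 3 and 4, so RNA spliced from entry 1 to those entries lacks them. In the table as a whole, 16861 of the 16862 entries with no base of their own were 0 in every library. The counts of Gs1 therefore come from these 220 bases and do not measure the rest of its mRNA.

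Gs1 had 15, 20 and 19 counts in libraries A, B and C of low-sugar wild type and 9, 22 and 12 in low-sugar mutants. The counts were 49, 41 and 47 in high-sugar wild type and 10, 16 and 18 in high-sugar mutants. Wild type on high sugar stood apart from the 9 other libraries, which overlapped. The wild-type means were 1.79 ± 0.23 CPM on low and 4.69 ± 0.71 CPM on high sugar (SD, n = 3), a rise by 1.38 ± 0.32 on the log2 scale (adjusted p = 0.00874). The mutant means were 1.27 ± 0.59 and 1.51 ± 0.45 CPM, with a log2 fold change of 0.25 ± 0.35 (95% interval -0.43 to 0.92, adjusted p = 0.644). On high sugar the mutants were 3.09-fold lower (log2 -1.63 ± 0.32, adjusted p = 0.00542). The difference between the diet responses was -1.13 ± 0.47, and it was not called (adjusted p = 0.164).

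**Figure D3:**
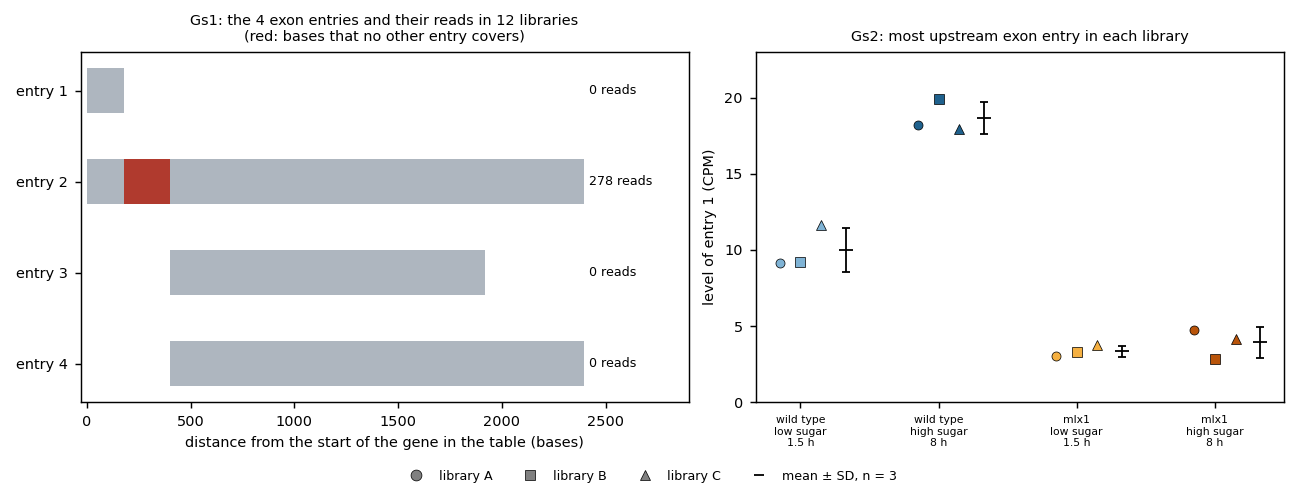
Left, the 4 exon entries of Gs1 along the gene, in bases from its start in the table, with the reads of each entry in the 12 libraries beside it; the 278 reads fell in entry 2, whose own 220 bases are red. Right, the level of Gs2 entry 1 in CPM (linear axis from 0) in each library with the mean ± SD, where the 6 mutant libraries sit between 2.84 and 4.77 CPM and the 6 wild-type libraries between 9.12 and 19.9 CPM.

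Gdh, glutamate dehydrogenase, was higher in mutants on both diets. It stood at 1996, 1361 and 1304 CPM in libraries A, B and C of low-sugar wild type and at 4942, 2970 and 3111 CPM in low-sugar mutants. On high sugar it stood at 1155, 1362 and 1308 CPM in wild type and at 2742, 2694 and 2236 CPM in mutants. Every mutant library was above every wild-type library, and library A was the highest of its group in both genotypes on low sugar. The mutants were 2.36-fold higher on low sugar (log2 1.24 ± 0.21, adjusted p = 0.00641) and 2.01-fold higher on high sugar (1.00 ± 0.21, adjusted p = 0.00745). With the 6 low-sugar libraries fitted alone the low-sugar call was lost at nearly the same size (1.23 ± 0.24, adjusted p = 0.0809). The 2 low-sugar libraries A also had the lowest cuticle means of the low-sugar groups. Without them and library C of high-sugar wild type the log2 difference of mutants was 1.19 ± 0.13 for low sugar (adjusted p = 0.00116) and 1.02 ± 0.12 for high sugar (adjusted p = 0.000451).

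Neither diet contrast of Gdh was called. The log2 fold change on high sugar was -0.29 ± 0.21 in wild type (adjusted p = 0.344) and -0.52 ± 0.21 in mutants (adjusted p = 0.0794), and the interaction was -0.24 ± 0.29 (adjusted p = 0.663). Both values rested in part on library A of low sugar: without that of wild type the wild-type log2 fold change was -0.062 (adjusted p = 0.849), and without that of mutants the mutant one was -0.25 (adjusted p = 0.327). The 2 ways of allowing for cuticle expression moved them in opposite directions. Without the 3 libraries low in cuticle genes they shrank to -0.081 ± 0.127 in wild type (adjusted p = 0.672) and -0.25 ± 0.12 in mutants (adjusted p = 0.131). With the cuticle mean as a covariate both were called, at -0.49 ± 0.15 in wild type (adjusted p = 0.0225) and -0.62 ± 0.14 in mutants (adjusted p = 0.00299). The mutant value was also called without low-sugar wild-type library A (-0.53 ± 0.18, adjusted p = 0.0427) or low-sugar mutant library B (-0.66 ± 0.22, adjusted p = 0.0413).

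The coverage of Gdh along the gene varied between libraries. On its minus strand entry 7 (3R:19768316-19768823) is the most upstream and entry 1 (3R:19761680-19762367) the most downstream. The counts of entry 7 divided by those of entry 1 ranged from 0.493 to 0.978 over the 12 libraries. High-sugar wild type, at 0.714 to 0.978, stood above high-sugar mutants, at 0.518 to 0.672, while every other pair of groups overlapped in this ratio. The mutant values were higher by 1.21 ± 0.14 on low sugar and 1.21 ± 0.14 on high sugar from entry 1 alone (adjusted p = 0.000531 and 0.000128), and the diet falls were then called too, at -0.43 ± 0.14 in wild type and -0.43 ± 0.14 in mutants (adjusted p = 0.0396 and 0.0336). From entry 7 alone they were higher by 1.19 ± 0.32 and 0.80 ± 0.32, and neither was called (adjusted p = 0.0807 and 0.137). Entry 2, a 39-base entry (3R:19762703-19762741), held 21 and 116 counts in low-sugar wild type and mutants and 28 and 58 in the high-sugar groups, from 0.045% to 0.0917% of the gene's counts.

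Among the cell type markers, the summed level of 5 Malpighian tubule markers moved with Gdh. It was 382 to 507 CPM in low-sugar wild type and 854 to 987 CPM in low-sugar mutants, and 250 to 266 and 739 to 896 CPM on high sugar. Of these, Uro, urate oxidase, had group means of 249 and 748 CPM on low sugar and 101 and 605 CPM on high sugar. The other 4 markers together had group means of 177 and 177 CPM in low-sugar wild type and mutants and 159 and 193 CPM in the high-sugar groups. None of the 5 was at 0. The part of the tubules in the Gdh values was not tested.

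Got2, the mitochondrial aspartate transaminase, fell on high sugar in mutants and not detectably in wild type. It stood at 417, 372 and 384 CPM in libraries A, B and C of low-sugar wild type and at 354, 255 and 269 CPM in low-sugar mutants. On high sugar it stood at 425, 365 and 472 CPM in wild type and at 187, 188 and 191 CPM in mutants. The 3 mutant libraries on high sugar lay within a narrow range below all 9 others. The log2 fold change on high sugar was 0.11 ± 0.13 in wild type (95% interval -0.15 to 0.37, adjusted p = 0.599) and -0.63 ± 0.13 in mutants (adjusted p = 0.00405). The mutants were 2.23-fold lower on high sugar (log2 -1.16 ± 0.13, adjusted p = 0.000143).

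The interaction of Got2 was -0.74 ± 0.19 (adjusted p = 0.0396). Leaving out a single library ended this call for 9 of the 12 libraries, all but wild-type library A and mutant library B on low sugar and wild-type library B on high sugar, with log2 values from -0.83 to -0.58 over the 12 and adjusted p up to 0.102. On low sugar the difference between genotypes was -0.42 ± 0.13 (adjusted p = 0.12), which was not called, although no mutant library reached the lowest wild-type library. The low-sugar difference was called in 5 of 24 alternatives, with adjusted p from 0.00941 to 0.309 over all 24. Among these 5 were the library letter as a block within each diet (-0.43 ± 0.10, adjusted p = 0.0318) and the fit without low-sugar mutant library A (-0.58 ± 0.11, adjusted p = 0.0214).

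Got1, the cytosolic aspartate transaminase, was at 357, 264 and 312 CPM in low-sugar wild type and 411, 305 and 328 CPM in low-sugar mutants. High-sugar levels were 316, 332 and 428 CPM in wild type and 408, 414 and 416 CPM in mutants. The groups overlapped except that high-sugar mutants stood above low-sugar wild type. The log2 fold changes of the diet and genotype contrasts ranged from 0.16 to 0.24, each with an error of 0.15, and none was called. Without the 3 libraries low in cuticle genes, Got1 was called for diet in mutants (0.38 ± 0.09, adjusted p = 0.0121) and for genotype on high sugar (0.35 ± 0.09, adjusted p = 0.0287). With the cuticle mean as a covariate neither was called, at 0.16 ± 0.09 (adjusted p = 0.185) and 0.20 ± 0.09 (adjusted p = 0.12).

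Got1 relative to Got2 within each library separated the genotypes. The ratio of their CPM was 0.711 to 0.856 in low-sugar wild type and 0.742 to 0.908 in high-sugar wild type, which overlapped. In mutants it was 1.16 to 1.22 on low sugar and 2.17 to 2.20 on high sugar, without overlap with each other or with wild type. A ratio of CPM between genes is not corrected for length, so only its differences between groups can be read. It shows unequal change of the pair and not which gene changed.

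CG7470, P5C synthase, had the widest range of the 8 genes over the group means, 2.98 on the log2 scale. It stood at 89.3, 62.4 and 74.9 CPM in libraries A, B and C of low-sugar wild type and at 52.6, 44.8 and 46.1 CPM in low-sugar mutants. On high sugar it stood at 314, 428 and 399 CPM in wild type and at 143, 153 and 104 CPM in mutants. The 4 groups did not overlap, and the high-sugar mutants lay between wild type on low and on high sugar. The level was 5.04-fold higher on high sugar in wild type (log2 2.33 ± 0.18, adjusted p = 1.07e-05) and 2.78-fold higher in mutants (1.48 ± 0.18, adjusted p = 9.2e-05). The mutants were 2.85-fold lower on high sugar (log2 -1.51 ± 0.18, adjusted p = 0.000148).

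Whether the diet response of CG7470 was smaller in mutants depended on the fit. The interaction was -0.85 ± 0.25 (95% interval -1.34 to -0.37, adjusted p = 0.0598) and was not called, while it was called in 9 of 24 alternatives, with adjusted p from 0.0105 to 0.15 over all 24. Among these 9 were the fits without library A of low-sugar wild type, library A of high-sugar wild type or library B of high-sugar mutants (adjusted p = 0.0389, 0.0451 and 0.0453). The genotype difference on low sugar was -0.66 ± 0.18 (adjusted p = 0.0658), also not called. It was called in 10 of 26 alternatives, with adjusted p from 0.00891 to 0.191 over all 26. Among these 10 were DESeq2, the cuticle covariate and the fit without high-sugar mutant library C (adjusted p = 0.0491). With the library letter as a block within each diet it was -0.65 ± 0.14 and called too (adjusted p = 0.0291). The upstream entries 1 to 8 and the downstream entries 9 to 11 gave the same directions: the wild-type diet response was 2.49 ± 0.21 from the former and 2.09 ± 0.15 from the latter, and the genotype effect on high sugar -1.59 ± 0.20 and -1.39 ± 0.15. Entry 12 had no base of its own and 0 counts.

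P5cr and slgA, on either side of proline, were not called in any contrast. P5cr, which reduces P5C to proline, was at 23.4, 24.8 and 26.9 CPM in low-sugar wild type and 32.7, 22.9 and 26.0 CPM in low-sugar mutants. High-sugar levels were 27.2, 30.4 and 30.9 CPM in wild type and 30.7, 29.1 and 29.7 CPM in mutants. Its 4 groups were close, with high-sugar wild type above low-sugar wild type in every library and no other pair of groups apart except high-sugar mutants against low-sugar wild type. The wild-type log2 fold change was 0.24 ± 0.13 (95% interval -0.01 to 0.49, adjusted p = 0.202). All its counts came from entry 1, since entry 2 lies within bases of the neighbouring gene Prp18 and had 0 counts.

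slgA, which starts proline oxidation in mitochondria and was named for the sluggish movement of its mutants, varied least. It was at 214, 196 and 180 CPM in low-sugar wild type and 192, 182 and 206 CPM in low-sugar mutants. On high sugar it was at 197, 190 and 176 CPM in wild type and 177, 186 and 205 CPM in mutants. All 4 groups overlapped. The log2 fold changes were -0.07 ± 0.10 and -0.03 ± 0.10 for diet in wild type and mutants, and -0.02 ± 0.10 and 0.01 ± 0.10 for genotype on low and high sugar. The 95% intervals of these 4 lay between -0.26 and 0.21, which leaves out changes of the size of the diet responses of CG7470.

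The ratio of CG7470 to slgA, proline-making to proline-oxidising, therefore followed CG7470. It was 0.318 to 0.417 in low-sugar wild type and 0.224 to 0.274 in low-sugar mutants, and 1.59 to 2.26 and 0.505 to 0.823 on high sugar. The ratio of Gdh to Gs2, glutamate dehydrogenase to glutamine synthetase, was lowest in high-sugar wild type, at 3.45 to 4.09, and 6.73 to 10.9 in low-sugar wild type. In mutants it was 28.8 to 58.5 on low sugar and 15.2 to 19.5 on high sugar. No group overlapped another in either ratio.

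**Figure D4:**
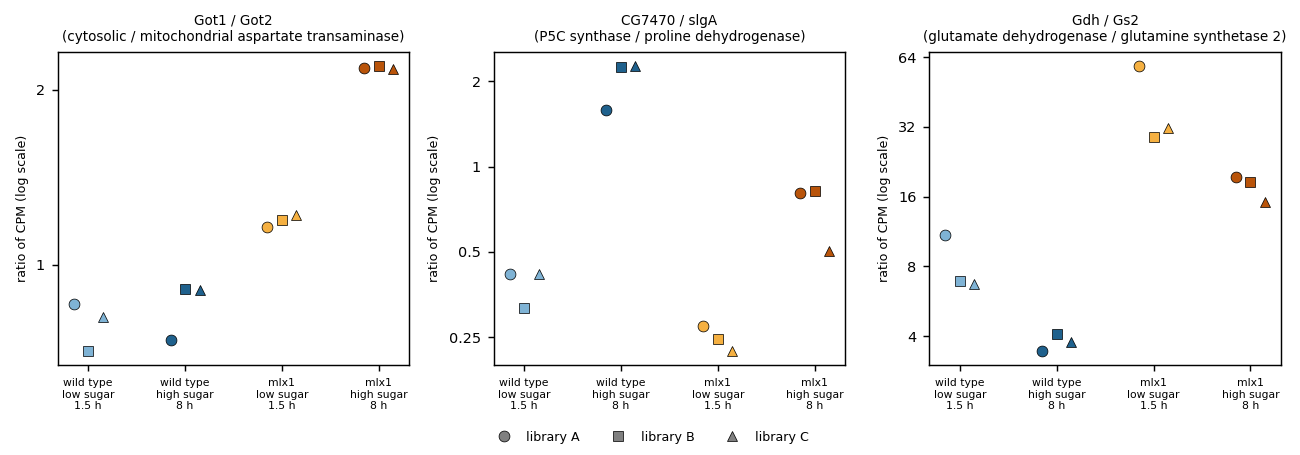
Ratios of CPM within each library on log axes, for Got1 to Got2, CG7470 to slgA and Gdh to Gs2, with the library letter as the symbol. Got1 to Got2 was 2.17 to 2.20 in the 3 mutant libraries on high sugar, CG7470 to slgA was highest in high-sugar wild type, and Gdh to Gs2 was above 15 in all 6 mutant libraries and below 11 in all 6 wild-type libraries.

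Levels of different genes were compared per kilobase of the longest exon entry that overlaps no other, which Gs1 lacks. In low-sugar wild type Gdh led at 788 ± 298 CPM per kb (SD, n = 3). Got1 at 229 ± 35 and Got2 at 227 ± 40 did not differ beyond their spread. Gs2 followed at 114.9 ± 15.4, slgA at 76.8 ± 15.4, CG7470 at 34.4 ± 5.1 and P5cr at 24.6 ± 1.7 CPM per kb. In high-sugar wild type Gs2 was at 258 ± 17, level with Got1 at 262 ± 46 and Got2 at 241 ± 12, and CG7470 at 146 ± 24 stood above slgA at 72.8 ± 2.5. In high-sugar mutants Gdh was at 1197 ± 209, Got1 at 301 ± 4 and Got2 at 108 ± 5, while Gs2 at 90.7 ± 10.9, slgA at 67.9 ± 10.1 and CG7470 at 60.9 ± 8.9 came next and the last pair overlapped in their spread. These values rest on single entries, which cover different parts of each mRNA, and entries of the same gene differed. Gs2 entry 10 held 14442 counts on 205 bases of its own, against 5446 on the 341 of entry 7 used here. Got1 entry 4 held 1152 counts on 108 bases, against 41683 on the 1295 of entry 6 used here. The order of the genes can therefore change with the entry chosen.

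For each member whose group means spanned at least 1 on the log2 scale, the genes with the most similar pattern were found by the root mean square difference of gene-centred log2 CPM over the 12 libraries, among genes with a mean of at least 10 CPM. For CG7470 these were ACC at 0.21, desat1 at 0.21 and GstE7 at 0.23. For Gs2 they were CG9119 at 0.16, CG5577 at 0.18 and CG13912 at 0.18, and for Gs1 Adk3 at 0.23, CG2765 at 0.32 and Gs2 at 0.33. For Gdh they were CG1544 at 0.19, CG10960 (nebu) at 0.20 and CG9547 at 0.20. For Got2 they were CG11334 at 0.10, CG4908 (Bcs1) at 0.14 and CG2915 at 0.18. As examples, on high sugar the log2 fold change of mutants against wild type was -1.69 ± 0.16 for ACC, -2.0 ± 0.14 for desat1 and -1.06 ± 0.11 for CG11334. Likeness of this kind is partly fixed by the groups and libraries the genes share. The genes were picked for likeness in these same libraries, so fold changes near those of the members follow from the choice and are no separate result.

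A list of 41 other genes of glutamine, glutamate, aspartate and proline metabolism, of which 37 passed the filter on low counts, was read in the same fit. It too was chosen with earlier results of these data known, so its shares are no test of the list. In wild type 9 rose and 6 fell on high sugar, 40.5% against the 23.1% of all genes. In mutants 9 rose and 8 fell, 45.9% against 29.3%. Mutants had 4 higher and 4 lower on low sugar, 21.6% against 3.59%, and 7 higher and 6 lower on high sugar, 35.1% against 13.9%. The interaction was called for 4 above and 5 below 0, 24.3% against 6.89%. The list median was 0.19 and 0.08 for diet in wild type and mutants, 0.10 and -0.07 for genotype on low and high sugar and -0.11 for the interaction.

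aralar1, the mitochondrial aspartate-glutamate carrier that works with the transaminases in the malate-aspartate shuttle, had the lowest fold change of the list in high-sugar mutants. Its mean was 156 ± 9 CPM in low-sugar wild type, 87.6 ± 12.1 in low-sugar mutants, 371 ± 19 in high-sugar wild type and 71.7 ± 3.6 in high-sugar mutants (SD, n = 3). It rose by 1.25 ± 0.11 in wild type (adjusted p = 2.55e-05), and mutants differed from wild type by -0.83 ± 0.11 for low sugar (adjusted p = 0.00127) and by -2.37 ± 0.11 for high sugar (adjusted p = 8.43e-08). The interaction was -1.54 ± 0.16 (adjusted p = 0.000326). No library of any group overlapped another, the mutants lying at 76.0 to 100.1 CPM on low and 67.7 to 74.4 CPM on high sugar. Of the other 4 shuttle and carrier genes tested, CG1907 alone was called in a genotype contrast, lower on high sugar.

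Among the users and makers of glutamine and glutamate, CG9674, glutamate synthase, rose from 215 ± 6 to 386 ± 4 CPM in wild type (log2 0.84 ± 0.08, adjusted p = 3.6e-05). It rose in mutants too, from 180 ± 4 to 265 ± 3 CPM (log2 0.55 ± 0.08, adjusted p = 0.00026), and the interaction was not called (-0.29 ± 0.11, adjusted p = 0.132). On high sugar it was lower in mutants than in wild type (log2 -0.55 ± 0.08, adjusted p = 0.000621). Asparagine synthetase, which uses glutamine as its amino donor, fell in mutants from 156 ± 38 to 37.2 ± 5.7 CPM (log2 -2.07 ± 0.24, adjusted p = 9.44e-05), with an interaction of -1.85 ± 0.33 (adjusted p = 0.00952). Prat2, which uses glutamine in the first step of purine synthesis, rose in mutants from 2.26 ± 0.55 to 22.9 ± 3.3 CPM (log2 3.33 ± 0.27, adjusted p = 9.56e-06), with an interaction of 2.95 ± 0.36 (adjusted p = 0.00113). CG45070 (Ctps), CTP synthase, had a log2 fold change of -1.17 ± 0.12 for diet in mutants (adjusted p = 3.06e-05) and of -0.61 ± 0.12 in wild type (adjusted p = 0.00345). Its interaction was not called (-0.56 ± 0.16, adjusted p = 0.0635). bur, GMP synthetase, was higher in low-sugar mutants by 0.54 ± 0.10 (adjusted p = 0.00997). In mutants 3 of the 10 tested genes of this group rose and 5 fell on high sugar, 80% against the 29.3% of all genes called.

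Around proline and ornithine, 3 of 6 tested genes rose and 1 fell in wild type, against 23.1% of all genes called, and 3 were higher and 1 lower in high-sugar mutants, against 13.9%. Odc1, ornithine decarboxylase, was at 63.8 ± 9.0 and 107 ± 6 CPM in wild type on low and high sugar and at 27.0 ± 2.1 and 67.4 ± 2.7 CPM in mutants. It rose in both, by 0.75 ± 0.11 (adjusted p = 0.000736) and 1.32 ± 0.11 (adjusted p = 1.29e-05), and was lower in low-sugar mutants, with a log2 fold change of -1.24 ± 0.11 (adjusted p = 9.19e-05). arg, arginase, fell in wild type from 28.5 ± 4.9 to 14.5 ± 1.3 CPM (log2 -0.97 ± 0.14, adjusted p = 0.000743) and was higher in high-sugar mutants, at 27.1 ± 2.9 CPM (log2 0.90 ± 0.14, adjusted p = 0.00136). P5CDh1, which oxidises P5C to glutamate and was singled out after its values were seen, was at 164 ± 18 and 213 ± 3 CPM in wild type and at 209 ± 22 and 278 ± 8 CPM in mutants on low and high sugar. CG5840 (P5cr-2), the other P5C reductase of the list, had 68 counts in all 12 libraries, too few to describe its level; it is among the 3 that rose in wild type.

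Of the other transaminases, Spat (Agxt), which uses serine or alanine with glyoxylate or pyruvate, went opposite ways with diet. It was at 57.8 ± 4.6 and 36.1 ± 4.4 CPM in wild type on low and high sugar and at 47.7 ± 3.9 and 126 ± 10 CPM in mutants. Its fall in wild type was called (log2 -0.68 ± 0.12, adjusted p = 0.00169), its rise in mutants was 1.40 ± 0.12 on the log2 scale (adjusted p = 1.17e-05) and its interaction 2.08 ± 0.16 (adjusted p = 7.29e-05). CG1673 (Bcat), the branched-chain amino acid transaminase, fell in wild type from 418 ± 53 to 222 ± 30 CPM (log2 -0.91 ± 0.13, adjusted p = 0.000634). In mutants it was at 661 ± 58 and 557 ± 42 CPM, higher than wild type on both diets (log2 0.66 ± 0.13 and 1.33 ± 0.13, adjusted p = 0.016 and 4.33e-05).

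Among the transporters, Eaat1 went from 32.8 ± 6.2 to 77.0 ± 16.4 CPM in wild type. NAAT1, which takes up nutrient amino acids, rose in mutants from 29.3 ± 1.9 to 70.4 ± 4.0 CPM (log2 1.26 ± 0.15, adjusted p = 9.49e-05). It rose in wild type as well, from 46.1 ± 9.2 to 84.0 ± 13.8 CPM (log2 0.86 ± 0.15, adjusted p = 0.00201), and its interaction was not called (0.40 ± 0.21, adjusted p = 0.286). The enzymes that charge tRNA with glutamine, glutamate or proline, aspartate and asparagine held 0 calls of 4 in wild type with diet and in both genotype contrasts, where 23.1%, 3.59% and 13.9% of all genes were called. In mutants 2 of 4 fell with high sugar, where 29.3% of all genes were called.

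**Figure D5:**
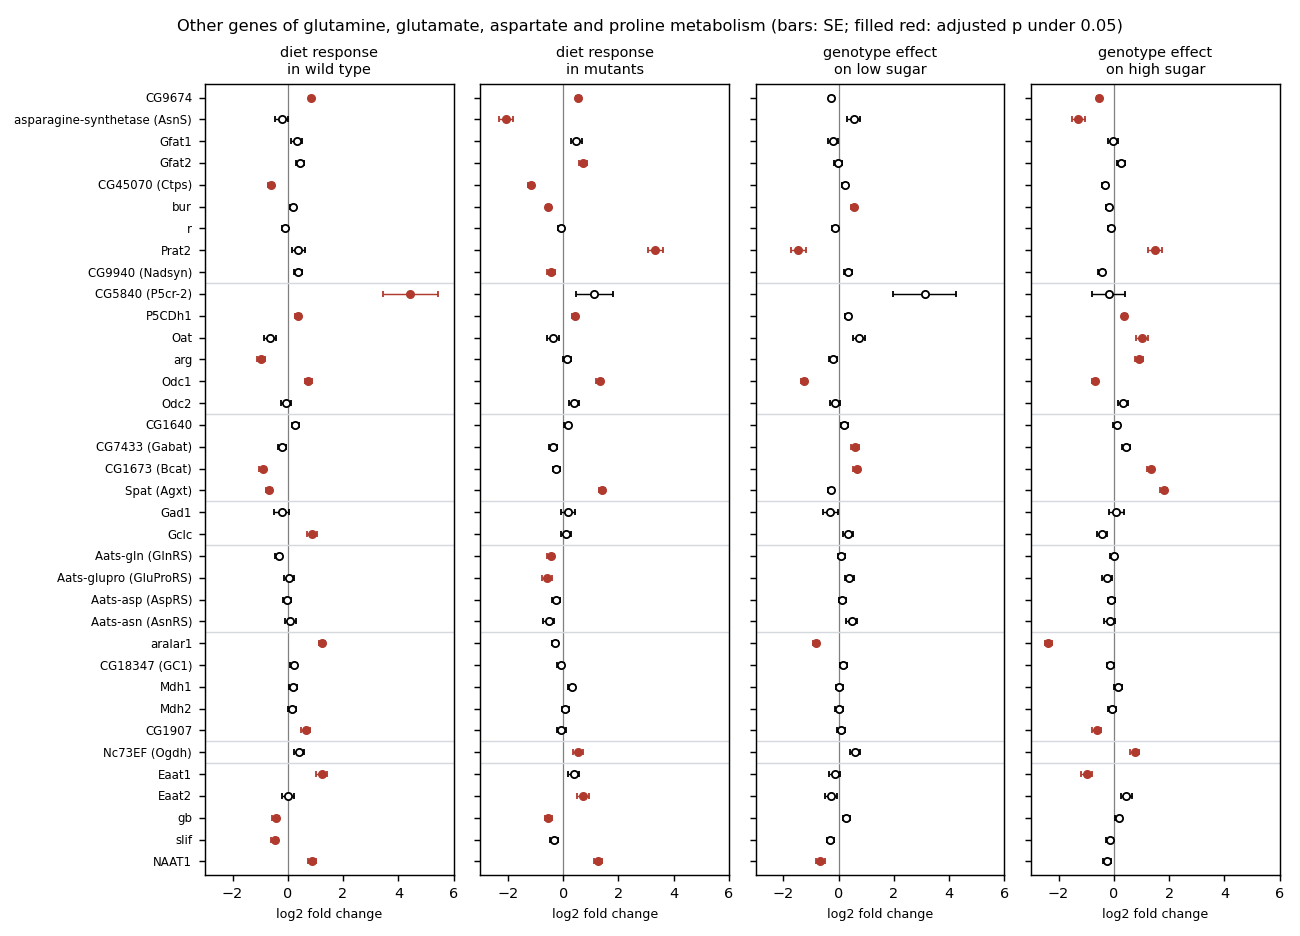
Log2 fold change with its standard error of 36 of the 37 tested genes of the list in the 4 diet and genotype contrasts, with current symbols in parentheses and grey lines between the groups of the list. Filled red symbols had an adjusted p under 0.05; aralar1 was at -2.37 in high-sugar mutants and Prat2 at 3.33 for diet in mutants.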

How the data were processed

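The deposited values are unnormalized counts of reads, given by the authors for each exon entry in 12 libraries of polyadenylated RNA from whole larvae. The submitters' processing notes name HTSeq 0.6.1, BWA 0.5.9 and SAMtools. The sources used here give no build, annotation or strand setting. Reads of overlapping genes on opposite strands therefore cannot be told apart. Entries without a gene name, at most 0.0148% of a library, were left out. Counts were summed per gene name, and library totals of 8924342 to 12507970 set the precision.

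Gene IDs, current symbols and strands come from the Ensembl BDGP6 annotation by symbol, without its coordinates. edgeR 4.0.16 (R 4.3.3) gave TMM factors, filterByExpr and a robust quasi-likelihood fit with 1 mean per group and 8 residual degrees of freedom. All 8 members passed the filter. The exon-level test was diffSpliceDGE. The scripts were tested on simulated data. No 2 libraries of a group agreed within sampling noise (lowest chi-square per degree of freedom 11.7).

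Same-letter libraries deviated together between genotypes on low sugar (r = 0.744, 0.687 and 0.174 for A, B and C, taken across genes), so the letter was added as a block for that contrast; in each other contrast at least 1 letter had a negative r, and the letters were not taken as pairs. Alternatives covered DESeq2 1.42.0, normalization, filters, overlapping entries, cuticle expression, the block and leaving out each library. The members and lists were chosen with earlier results of these data known. All 8 members are named; of the list of 41 genes, up to 6 called genes with the smallest p in each contrast. Of these, 1 gene is not reported here.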

Additional observations from a re-analysis of the deposited data

Results flagged for a closer look

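Got2 was flagged because its diet response differed between the genotypes by a test of the difference itself: the mutant response minus the wild-type response was -0.74 on the log2 scale (edgeR quasi-likelihood test, adjusted p = 0.0396). All 3 mutant libraries on high sugar were below all 3 on low sugar, whereas the wild-type libraries of the diets overlapped. The call was fragile: it was lost in 9 of the 12 fits that left out 1 library (adjusted p up to 0.102) and with upper-quartile factors (adjusted p = 0.0523).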

How the results depend on the processing

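Members called for the genotype effect on low sugar went from 2 to 4 with DESeq2, with the cuticle covariate and with the letter as a replicate block within each diet, and to 1 with the groups of the contrast alone, where Gdh was not called. Genes called in that contrast were 653, 609, 863 and 122, against 361. CG7470 alone was added to the members called there with upper-quartile factors, no filter, the 5 CPM filter, without entries overlapping another gene and from the highest entry. Without the 3 libraries low in cuticle genes it was Got2. Members called for the interaction were 2, against 1, with RLE factors, DESeq2, no filter, a filter of 5 CPM in 3 libraries, the cuticle covariate and without entries overlapping another gene, and 0 with upper-quartile factors; genes called were 1202 with DESeq2 and 1370 with the covariate, against 692. Genes called for the genotype effect on high sugar were 2236 with the covariate, against 1392. Leaving out 1 library gave 1423 to 2755 genes for diet in wild type, 180 to 441 and 825 to 1677 for genotype on low and high sugar and 271 to 1021 for the interaction, with 0 to 2 members there. Member exons called on high sugar were 1 (Gs2 entry 1) with the 5 CPM filter and with the letter as a replicate block across all libraries, and 0 to 1 without 1 library. That block changed no other call of a member.

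Of 935 values of single genes, 844 kept direction and call, 34 gained a call, 13 lost it and 44 changed sign. None that changed sign was called, and all lay between -0.08 and 0.13. For genotype on high sugar P5cr and slgA turned to -0.010 and -0.016 with RLE factors, -0.011 and -0.016 with DESeq2, -0.018 and -0.022 with no filter, -0.0068 and -0.012 with the 5 CPM filter, and -0.0097 and -0.015 without entries overlapping another gene. Without the 3 libraries low in cuticle genes for their group slgA was -0.035 there, 0.045 for diet in wild type, 0.047 for genotype on low sugar and -0.082 for the interaction; P5cr was -0.081 on low sugar and 0.13 for the interaction, and Gs1 -0.044 for diet in mutants. For diet in mutants slgA was 0.0018 with upper-quartile factors and 0.067 from its highest entry. Got2 was -0.034 for diet in wild type with the covariate, and Gdh 0.0037 for the interaction from entry 1 alone.

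Without 1 library the ranges of those that changed sign were, for slgA, -0.13 to 0.0012 and -0.095 to 0.014 for diet in wild type and mutants, -0.083 to 0.045 and -0.052 to 0.057 for genotype on low and high sugar and -0.035 to 0.093 for the interaction. For P5cr they were -0.034 to 0.23 and -0.040 to 0.051 for genotype on low and high sugar and -0.22 to 0.049 for the interaction. The interaction spanned -0.075 to 0.18 for Got1 and -0.46 to 0.035 for Gdh, and diet in mutants -0.043 to 0.66 for Gs1. The causes were not tested. Entry choices for Gdh and CG7470 and the block within each diet were chosen after seeing the data. The calls of CG7470, Gs1 and Gs2 for diet in wild type and of these and Got2 for genotype on high sugar held in every alternative that tested the gene; Gs1 did not pass the 5 CPM filter and was not tested there. The low depth of Gs1 limits its values.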
